A study of Mus musculus with 8 samples.

Results

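The genes described here set the passage of erythroid cells from G1 to S phase: the CDK inhibitors Cdkn1a (p21), Cdkn1b (p27), Cdkn2c (p18) and Cdkn2d (p19), the D-type cyclins Ccnd1, Ccnd2 and Ccnd3, cyclin E1 (Ccne1), and the kinases Cdk4 and Cdk6. They were chosen by name. Of these 10 genes, 7 were found by symbol among the 11364 genes of the deposited expression tables. Cdkn2d, Ccnd1 and Cdk6 were found there neither by symbol nor by Entrez identifier, so they have no expression value here. Of the 5551 consensus KLF1 binding sites, 15 had one of the 10 genes as their closest transcription start site (TSS), and these 15 sites fell to 5 genes, Ccnd3, Ccne1, Cdk4, Cdkn1a and Cdkn2c.

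The cells were K1, an immortalised erythroid line from Klf1-null mouse fetal liver, and derivatives of it that carry a retroviral KLF1 fused to an estrogen receptor domain that binds ligand. 4-hydroxytamoxifen (4-OHT) moves the fusion protein into the nucleus. K1-ER cells carry wild type KLF1 and K1-E339K-ER cells carry KLF1 with the glutamate-to-lysine change E339K, a mouse version of the change found in congenital dyserythropoietic anemia type IV. By the labels, newly made RNA was captured after 30 min of labelling with 500 µM 4-thiouridine (4sU). It came from 3 K1 cultures, 2 given 200 nM 4-OHT and 1 given ethanol, and from 3 K1-E339K-ER cultures given 200 nM 4-OHT. The study's methods describe 3 independent clones for K1 and for K1-E339K-ER alike. ChIP and its input came from 1 K1-E339K-ER clone after 3 h of 200 nM 4-OHT, with replicates pooled before the library was made. The K1-ER libraries belong to earlier work, and only means that include them were used. All of these cells lack endogenous KLF1. K1 cells carry no transgene, and the other lines express the fusion protein from a viral promoter. The labels are not in full accord with other notes: the treatment protocol of the K1 culture labelled ethanol names 4-OHT, so its treatment is in doubt, and the study's methods state another 4sU dose and labelling time than the labels.

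D-type cyclins bind and activate CDK4 and CDK6, which phosphorylate the retinoblastoma protein and so release the E2F factors that drive genes of S phase. Cyclin E then activates CDK2 to carry the cell into DNA synthesis. The INK4 inhibitors, p18 and p19, block CDK4 and CDK6, and the CIP/KIP inhibitors, p21 and p27, act mainly on cyclin-CDK2 complexes. In the erythroid lineage the last divisions are tied to maturation: cyclin D3 is known for setting the number of divisions before enucleation, and p27 and p18 for the exit from the cell cycle.

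Each expression value below is the authors' mean for a gene over all libraries of their fit, K1, K1-E339K-ER and K1-ER together. Each binding value is likewise the authors' mean for wild type or mutant protein, and the labels list 1 pooled mutant ChIP library. Neither the expression nor the binding values come with an error. The order of genes and the size of differences could therefore not be set against the spread between replicates, no test between cell lines could be made from these means, and Klf1 itself could not be checked library by library. In such a mean, less RNA per cell cannot be told apart from fewer cells of a type. The markers of the erythroid lineage were all listed, 12 of 12, at a mean log2 CPM (reads scaled to library size) of 3.79 to 9.79, with Gata1 at 9.79 and Tal1 at 9.48 and the alpha-globin gene Hba-a1, which is short, at 3.79 (higher than 29.2% of genes, and than 85.0% per kilobase). Of the 4 lymphoid, 3 mast cell and 3 hepatocyte markers 0 were listed. Other lineages had 3 of 5 megakaryocyte markers (1.79 to 5.30), 2 of 5 myeloid markers (0.77 and 1.84) and 1 of 4 fibroblast or endothelial markers (Col1a1 at −1.69).

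Cyclin E1 was the most abundant of the 7 genes in newly made RNA, and cyclin D2 was close to the lower end of all genes listed. Ccne1 (Entrez 12447) had a mean log2 CPM of 8.46, or 351 CPM, higher than 96.8% of the genes listed. Ccnd3 (Entrez 12445) followed at 7.0 (128 CPM, 81.4%) and Cdk4 (Entrez 12567), the kinase that D-type cyclins activate, at 6.73 (106 CPM, 76.8%). The inhibitor Cdkn1b (Entrez 12576) stood at 5.89 (59.4 CPM, 61.2%), above the median of 5.27 over all genes. Cdkn2c (Entrez 12580) at 4.38 (20.8 CPM, 36%) and Cdkn1a (Entrez 12575) at 4.28 (19.5 CPM, 34.9%) lay below that median, though above the lower quartile of 3.39. Ccnd2 (Entrez 12444) had −1.08, which is 0.474 CPM, and ranked 11289 of 11364 genes. In all, 4 of the 7 genes exceeded the median of all genes, and the median of the 7 was 5.89.

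Levels of different genes can be compared only per length, since a longer transcribed unit gives more fragments. The deposited length ran from 3680 bp for Cdk4 to 94638 bp for Ccnd3, with a median of 20990 bp over all genes. It is close to the genomic span for most of these genes. For Cdk4 (chr10:126500590-126504976) and Cdkn2c (4497 bp, chr4:109333481-109339794) it is shorter than the annotated span. Their values per kilobase, and ratios that use them, would be different with the span. On the scale of log2 CPM per kilobase the order became Ccne1 (5.21), Cdk4 (4.85), Cdkn1b (3.54), Cdkn2c (2.21), Cdkn1a (1.00), Ccnd3 (0.43) and Ccnd2 (−5.74), beside a median of 0.82 over all genes. Ccne1 and Cdk4 stayed near the top, higher than 97.4% and 96.5% of all genes, and their levels per kilobase were 1.28-fold apart. Ccnd3 moved the other way, from above 81.4% of genes on the CPM scale to above 43.3% per kilobase. Its length of 94638 bp covers the whole gene, while a second annotated TSS at position 47730416 lies near the gene end at 47736632. RNA begun there would span far fewer bases, so the value per kilobase depends on the TSS used. Use of each TSS was not tested. The short genes Cdkn2c and Cdkn1a crossed the median upward, to above 74.3% and 53.0% of genes. Among the inhibitors, the level per kilobase of Cdkn1b was 2.51-fold that of Cdkn2c and 5.82-fold that of Cdkn1a. Ccnd3 was 72.0-fold above Ccnd2 per kilobase. The size of that fold rests on a Ccnd2 mean of only 0.474 CPM and on the Ccnd3 length used. Cyclin D3 was on both scales the more abundant of both D-type cyclins that had a value.

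**Figure D1:**
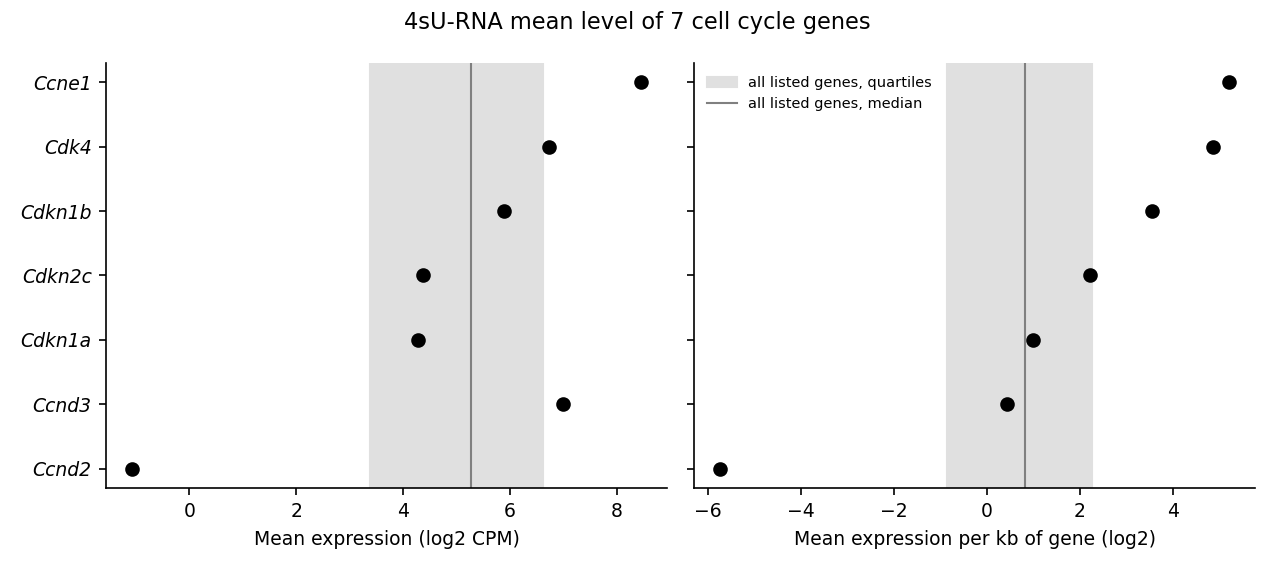
Mean expression of the 7 genes with a value, on the deposited scale (log2 CPM) and per kilobase of the deposited length (log2 CPM per kb), with the median (line) and quartiles (grey band) of all 11364 genes. Each point is 1 mean over all libraries of the authors' fit, so no error can be drawn. Ccne1 leads on both scales, Ccnd2 is last on both, and Ccnd3 drops from above the median to below it per kilobase.

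The other genes of the same step were mostly well expressed. In a list of 22 genes that act beside the 10, 20 had a value, 17 of these exceeded the median of all genes (13 per kilobase), and their median was 6.53 on the CPM scale. E2f2, an E2F factor prominent in erythroid cells, had a mean log2 CPM of 8.51, its partner Tfdp1 8.48 and the phosphatase gene Cdc25a 8.24. Of the inhibitors in the list, Cdkn1c (p57) had 0.91 and Cdkn2b (p15) 0.76, and per kilobase −0.53 and −1.49. Cyclin E2 (Ccne2) had a mean log2 CPM of 6.37, its kinase Cdk2 5.50, and the retinoblastoma gene Rb1 5.98. Per kilobase these 3 genes had 2.62, 2.67 and −1.04.

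The comparison of KLF1-ER with KLF1-E339K-ER occupancy sets the levels of both proteins side by side at each site. The KLF1-ER libraries belong to earlier work, so a difference between the proteins cannot be told apart from a difference between the studies. Concentration here is the log2 of the mean normalised read count in a site. A site was called higher for 1 protein when both concentrations differed by at least 4-fold, a rule of size with no test behind it. Over all 5551 sites the mutant was at least 4-fold above wild type at 55.3% and wild type at least 4-fold above the mutant at 23.3%, with 21.4% in between. Of the 15 sites of the cell cycle genes, 7 were higher for the mutant, 2 were higher for wild type and 6 lay within 4-fold, so neither share stood above that over all sites. Of the 7 genes with an expression value 5 had a site, beside 26.6% of the 11259 symbols listed. The median difference, mutant minus wild type, was 1.55 on the log2 scale at these 15 sites and 2.60 at all sites.

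**Figure D2:**
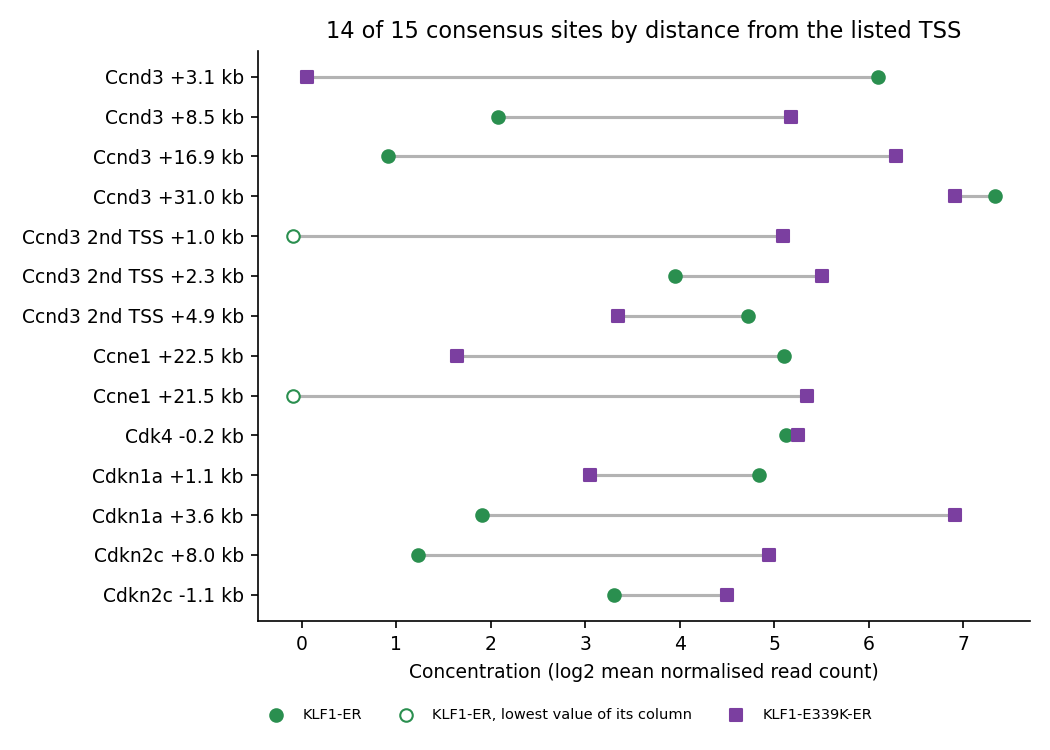
Concentration (log2 of the mean normalised read count) of KLF1-ER (circles) and KLF1-E339K-ER (squares) at 14 of the 15 sites, labelled by gene and by distance from the listed TSS, with negative distances upstream. Open circles mark wild type concentrations at the lowest value of their column. The differences run both ways within Ccnd3 and within Ccne1.

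Low concentrations have a coarse scale, which limits the folds. The lowest wild type value, −0.09, was shared by 1424 sites and the lowest mutant value, −0.38, by 147. On a linear scale the lowest wild type values were 0.94, 1.41, 1.88 and 2.35, that is 1, 1.51, 2 and 2.5 times the lowest, so neighbouring values at this end are a single step apart. No fold is given against the lowest value of a column. The sites had to be called for at least 1 of both proteins to enter the consensus, as the plot of all sites shows by its empty lower corner.

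**Figure D3:**
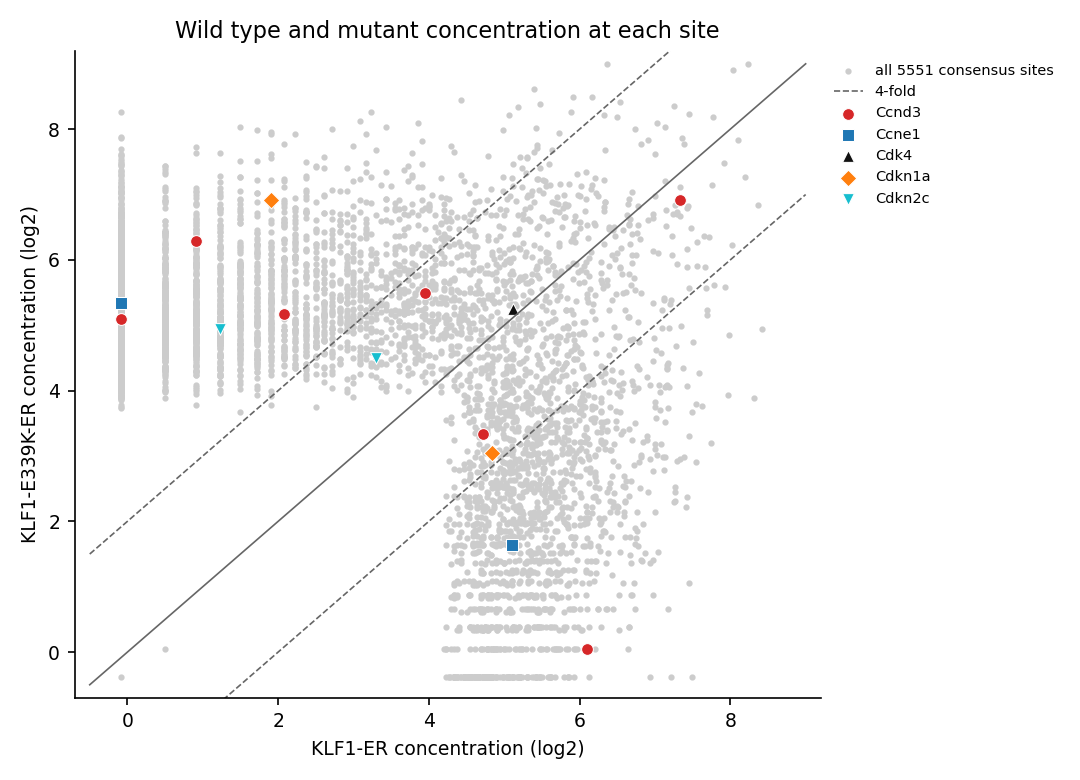
Wild type concentration (x axis, log2) against mutant concentration (y axis, log2) for all 5551 consensus sites (grey) and 14 of the 15 sites of the cell cycle genes (coloured by gene). The solid line marks equal values and the dashed lines 4-fold. The coloured sites fall above, below and between the dashed lines, and 1 Ccnd3 site lies near the upper right end, high for both proteins.

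Cyclin D3 carried most of these sites. Ccnd3 (mm9 chr17:47642000-47736632, plus strand) was the closest gene of 8, and only 18 of the 3670 genes with a site had 8 or more. Among the 1372 listed genes at least as long as Ccnd3, 3 had that many, and their median was 0. Along the gene, 7 sites lay within introns and 1 overlapped an exon. They formed a group of 5 within 31.0 kb of the upstream TSS and a group of 3 within 4.93 kb of a second annotated TSS at position 47730416. Of the 8, 4 were higher for the mutant, 1 was higher for wild type and 3 lay within 4-fold.

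The sequences at 3 Ccnd3 sites past the 4-fold rule, and at the site both proteins occupied most, are given for the reference plus strand within 50 bp of the midpoint, in mm9. Capitals mark matches on either strand to the KLF1 motif NGGGCGGGG, NGGGCGTGG, NGGGTGGGG or NGGGTGTGG, which has a pyrimidine at position 5, or to the form with a purine there, NGGGAGGGG, NGGGAGTGG, NGGGGGGGG or NGGGGGTGG.
Ccnd3 +3.09 kb, wild type higher, chr17:47645039-47645139: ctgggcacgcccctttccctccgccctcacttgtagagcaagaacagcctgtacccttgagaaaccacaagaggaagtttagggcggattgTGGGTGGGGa
Ccnd3 +8.5 kb, mutant higher, chr17:47650447-47650547: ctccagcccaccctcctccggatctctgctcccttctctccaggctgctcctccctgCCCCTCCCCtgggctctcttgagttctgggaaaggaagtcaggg
Ccnd3 +16.9 kb, mutant higher, chr17:47658800-47658900: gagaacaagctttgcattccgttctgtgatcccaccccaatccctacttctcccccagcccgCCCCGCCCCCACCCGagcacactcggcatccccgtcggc
Ccnd3 +31.0 kb, high for both, chr17:47672934-47673034: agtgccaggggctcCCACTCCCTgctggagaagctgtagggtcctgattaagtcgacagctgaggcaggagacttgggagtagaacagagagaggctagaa

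The first Ccnd3 site, chr17:47644895-47645284 at 3.09 kb past the TSS, had a concentration of 6.10 for KLF1-ER and 0.05 for KLF1-E339K-ER, 66.3-fold higher for wild type. That mutant value is a single step above the lowest of its column. Its window holds 1 pyrimidine match, TGGGTGGGG. The next site, chr17:47650337-47650658 at 8.5 kb, had 2.08 for wild type and 5.18 for the mutant, 8.57-fold higher for the mutant, and holds 1 purine match, GGGGAGGGG on the minus strand. So the direction turned between neighbouring sites whose midpoints are 5408 bp apart.

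At 16.9 kb (chr17:47658462-47659239) wild type KLF1 stood at 0.91 and the mutant at 6.29, a 41.6-fold difference toward the mutant that rests on a wild type value of 2 steps above the lowest. The window holds 2 overlapping pyrimidine matches and no purine match, while the whole site of 778 bp also holds 1 purine match.

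The strongest of the 15 sites for wild type KLF1 lay at 31.0 kb (chr17:47672679-47673290). KLF1-ER had 7.33 there, above 99.1% of all sites, and KLF1-E339K-ER had 6.91, above 95.8%. The 1.34-fold difference is within the 4-fold rule, and the window holds 1 purine match, AGGGAGTGG, and no pyrimidine match. Over the whole site there were 1 purine and 2 pyrimidine matches.

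Around the second TSS of Ccnd3 the directions were again mixed. At 1.05 kb past it (chr17:47731307-47731617) wild type KLF1 was at the lowest value of its column and the mutant at 5.09. The window holds a pyrimidine match, and the whole site holds 2 purine and 2 pyrimidine matches. At 2.34 kb (chr17:47732428-47733078) the values were 3.95 and 5.50, and at 4.93 kb (chr17:47735111-47735576), where the site overlaps an exon, 4.72 and 3.34. These last 2 differed by 2.93-fold toward the mutant and 2.60-fold toward wild type.

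**Figure D4:**
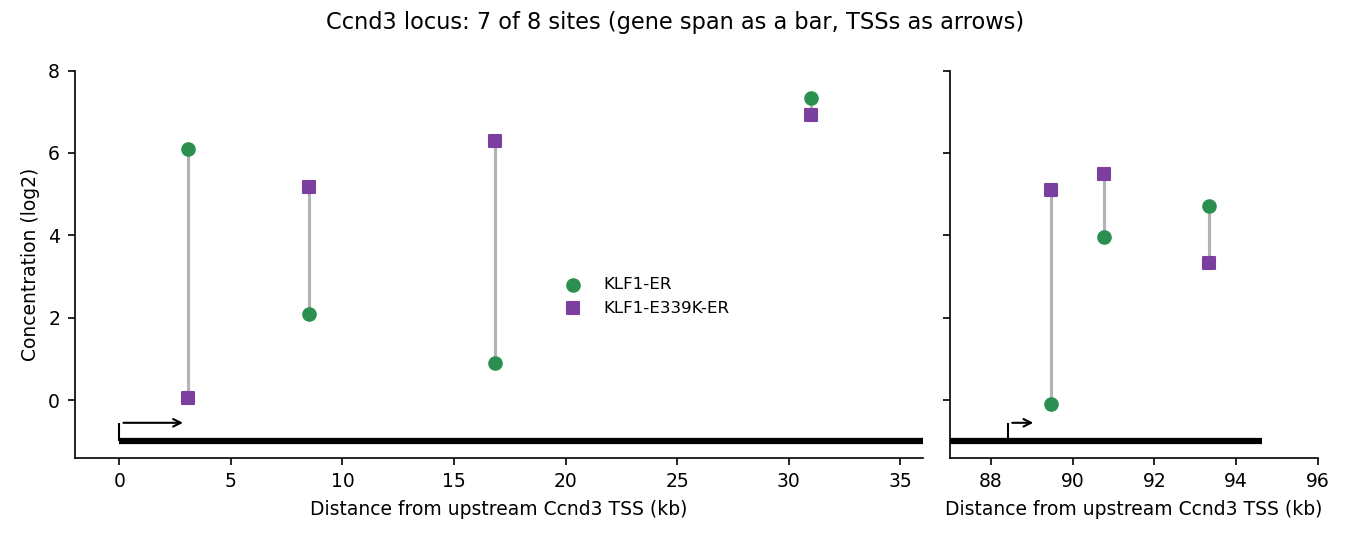
Concentration (log2) of KLF1-ER (circles) and KLF1-E339K-ER (squares) at 7 of the 8 Ccnd3 sites by distance in kb from the upstream TSS, with the stretch between both groups of sites left out. The black bar is the gene span and the arrows are the annotated TSSs. Wild type is far above the mutant at 3.09 kb, far below it at 16.9 kb, and both are high at 31.0 kb.

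Cyclin E1 had a pair of sites with opposite calls. Ccne1 (chr7:38883003-38892553, minus strand) was the closest gene to both, and both lie in intergenic sequence beyond its 3′ end, 22.5 kb and 21.5 kb downstream of the listed TSS. The windows are shown because their midpoints are only 978 bp apart and the site edges 649 bp apart.
Ccne1 22.5 kb downstream, wild type higher, chr7:38869969-38870069: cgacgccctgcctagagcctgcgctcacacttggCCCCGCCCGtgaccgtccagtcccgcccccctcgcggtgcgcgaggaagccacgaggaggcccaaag
Ccne1 21.5 kb downstream, mutant higher, chr7:38870947-38871047: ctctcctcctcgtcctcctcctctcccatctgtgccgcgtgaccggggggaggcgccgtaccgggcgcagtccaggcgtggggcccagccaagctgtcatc
At chr7:38869855-38870184 wild type KLF1 had 5.10 and the mutant 1.64, 11-fold higher for wild type, and the window holds the pyrimidine match CGGGCGGGG on the minus strand. At chr7:38870834-38871161 wild type was at the lowest value of its column and the mutant had 5.34, and the window holds neither form. Ccnd3 and Ccne1 were therefore among the genes with both a mutant-higher and a wild type-higher site, which made up 275 of the 1103 genes with 2 or more sites (24.9%).

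Cdk4 was the one gene of the 10 with a site over its listed TSS, with nearly the same concentration for both proteins. The site, chr10:126500212-126500760, has its midpoint 0.173 kb upstream of the listed TSS and overlaps the first exon. KLF1-ER had 5.12 and KLF1-E339K-ER 5.25, a 1.09-fold difference with no error to set it against. The window holds 2 pyrimidine matches, GGGGCGGGG and GGGGTGTGG, and is shown because it is the promoter site of the group.
Cdk4 0.173 kb upstream, within 4-fold, chr10:126500436-126500536: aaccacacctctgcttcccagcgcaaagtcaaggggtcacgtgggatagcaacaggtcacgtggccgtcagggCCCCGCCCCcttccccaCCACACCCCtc
Of all sites, 39.5% had their midpoint within 1 kb of the listed TSS, and of the 15 sites 1 did. Counting every annotated TSS of the gene, 3 of the 15 did.

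Among the CDK inhibitors, Cdkn1a and Cdkn2c had 2 sites each, 1 higher for the mutant and 1 within 4-fold in both genes. In Cdkn1a (chr17:29227924-29237667, plus strand), an intronic site at chr17:29231593-29232081, 1.12 kb past the listed TSS, had 4.84 for wild type and 3.05 for the mutant, 3.46-fold toward wild type. The second intronic site, chr17:29234147-29234537 at 3.62 kb, had 1.91 for wild type and 6.91 for the mutant, 32-fold higher for the mutant and above 95.8% of all mutant concentrations. It lies 810 bp before another annotated TSS of the gene. Its window is shown because it is a tandem repeat without a match to either motif form, though the whole site holds 1 purine match.
Cdkn1a +3.62 kb, mutant higher, chr17:29234292-29234392: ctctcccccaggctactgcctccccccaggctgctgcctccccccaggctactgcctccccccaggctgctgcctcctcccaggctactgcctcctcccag
At its best period of 36 bp, 92.3% of the bases in this window equal the base one period on, and 43 of the 5551 sites (0.775%) are as repetitive or more so. This search for repeats was added after the sequences were seen. Multi-mapped reads had been removed before peaks were called, and the part of the repeat in the difference was not tested.

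Cdkn2c (chr4:109333481-109339794, minus strand) had a site on either side of its listed TSS. The site 8.0 kb downstream, chr4:109329807-109330153, lies beyond the gene in an exon of the transcript 9630013D21Rik and had 1.23 for wild type and 4.94 for the mutant, 13.1-fold higher for the mutant. The site 1.12 kb upstream, chr4:109338933-109339257, overlaps an exon with untranslated sequence, because it is 699 bp downstream of the other annotated TSS of the gene. It had 3.30 and 4.50, 2.30-fold toward the mutant. Neither window holds a motif match of either form.

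Over the 15 windows, 3 (20.0%) held a purine match, 6 (40.0%) a pyrimidine match and 6 (40.0%) neither. Over all 5551 sites these shares were 35.5%, 35.3% and 42.2%. Among all mutant-higher sites 46.3% held a purine match and 21.8% a pyrimidine match, and among all wild type-higher sites 15.1% and 62.8%. Of the 7 mutant-higher sites of the cell cycle genes, 2 held a purine match, 2 a pyrimidine match and 3 neither. Both wild type-higher sites held a pyrimidine match and neither held a purine match. A match is a description of the letters in a window, not a test of binding.

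The closest TSS leaves out sites that lie near a gene but nearer to another. Within 100 kb of a TSS of the 10 genes there were 32 sites, 17 of them closest to 13 other genes. Of these 17, 10 were higher for the mutant, 5 higher for wild type and 2 within 4-fold, beside 55.3%, 23.3% and 21.4% of all sites. Cdkn1b (chr6:134870419-134875531), with no site of its own, had one 8.43 kb away at chr6:134878444-134879254, where wild type stood at 5.35 and the mutant at 5.16. Its closest TSS is 1190002F15Rik, and it holds 2 pyrimidine matches. Cdkn2d (chr9:21092907-21095653) had 7 sites in this range, all closest to other genes. Of these, 4 were higher for wild type, among them the nearest to the gene, 26.1 kb away and closest to Atg4d, with 5.69 for wild type and 2.29 for the mutant. Near Ccnd3, a site closest to Taf8 at 20.6 kb from the TSS had 4.20 for wild type and 6.85 for the mutant, and holds 3 purine matches. Ccnd1, Ccnd2 and Cdk6 had 0 sites within 100 kb, which says only that none was called there in the consensus.

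The promoter sequences, taken from RefSeq on GRCm38.p6 as the 250 bases before and 50 after each gene start, were searched for the same motif forms. The 8 genes matched had 11 promoters. A pyrimidine match was in 8 of these (72.7%) and in 29.7% of all 32851 promoters, and a purine match in 3 (27.3%) and in 22.6% of all. The promoters compared were not matched for their share of G and C bases, and the difference was not tested. Ccne1 had 5 pyrimidine matches, the most of the group, with 0 consensus sites within 10 kb of an annotated TSS of the gene. Cdkn2c and Cdkn2d had 3 pyrimidine matches each. Cdk4 had 3 pyrimidine matches and 1 purine match, and the Cdkn1b promoter had no match of either form.

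The 22 other genes of this step had 17 sites at 10 genes, 8 higher for the mutant, 4 higher for wild type and 5 within 4-fold. Over all 5551 sites the shares of these 3 calls were 55.3%, 23.3% and 21.4%, and the single sites below are described without a test. All 4 sites of E2f2 lay within 4-fold, with wild type concentrations of 5.93, 5.65, 6.70 and 5.00 and mutant concentrations of 6.59, 4.27, 7.04 and 5.93. Both sites of Ccne2 were higher for the mutant, with 0.91 for wild type and 5.23 for the mutant at one and 1.91 and 5.63 at the other, and the first of these holds 8 purine matches. Wild type was higher at the single sites of Rb1 (5.57 against 2.16) and its relative Rbl1 (4.98 against 0.88), both within 1 kb of the TSS. At E2f3, which encodes another activating E2F, 2 of 3 sites were higher for the mutant, at 0.91 against 6.12 and 2.23 against 6.27. Fbxw7, whose product targets cyclin E for degradation, had a site in either direction.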

How the data were processed

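Newly made (4sU-labelled) RNA was sequenced from K1 and K1-E339K-ER cells and KLF1-E339K-ER ChIP from 1 clone, as grouped by the labels. Ion Proton reads were aligned by the authors to the mm9 genome with TMAP and TopHat2 (version 2.0.10 in the submitters' processing notes), removed duplicate and multi-mapped ChIP reads, fitted voom and limma to the RNA and compared binding with DiffBind. Versions of limma and DiffBind, and the gene annotation, are not given in the sources used here. The mean expression is deposited as log2 CPM, as the authors computed it over all libraries of their fit. The binding concentrations are deposited as log2 of the authors' mean normalised read count per protein. Other columns hold the authors' comparisons (log2 fold changes, t, p-values, FDR) and were not used. The tables hold no counts per library, so depth is unknown and no interval is given.

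Genes were joined on Entrez identifier, length and mean expression, since 779 of 11364 genes carry different symbols in both tables. Log2 CPM per kb is log2 CPM minus log2 of the length in kb, and a percentile is the share of genes with a lower value. The sign of the deposited distance was read as TSS minus site midpoint, which led within 100 bp of an annotated TSS for 94.1% of 5148 sites, and was turned to the strand of the gene. Places are from GENCODE M1 and sequence from NCBIM37, the assembly of mm9. Exact motif matches were counted on both strands in 101 bp windows, overlaps included (Python 3.11.15, pandas 2.3.3, pysam 0.24.0, samtools 1.23.1). The searches were tested on simulated data. The named genes are the 10 genes, the genes of sites within 100 kb and a list of 22 genes of the same step, and all of these and the marker lists were chosen with earlier results of these data known. Alternatives were other folds, windows, distances, filters and scaling by length. One of the sites at Ccnd3 enters the counts and is not reported singly here.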

Additional observations from a re-analysis of the deposited data

How the results depend on the processing

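No paired analysis was possible because the columns carry no values per library, and for the same reason no replicate could be left out. Of the counts over the group, 15 values under another setting stayed within 1.5 times the reported one and 8 did not. For the percentiles of single genes, 3 values under another setting stayed within a 95% interval of the reported share and 16 did not. That interval reflects only the number of genes listed, so small shifts also fall outside it. Mutant-higher sites numbered 4 within 10 kb and 17 within 100 kb of a TSS, against 7 by closest TSS. Wild type-higher sites numbered 4 at 2-fold, 1 within 10 kb and 7 within 100 kb, against 2. Sites with a purine match numbered 5 within 100 bp of the midpoint and 9 over the whole site, against 3, and wider sequence by its construction holds more matches. Genes with a purine match in a promoter numbered 5 within 500 bp of the gene start, against 3. Under filters on low expression none of the single genes with a value crossed the middle of the genes kept, while per kilobase Ccnd3 fell below it and Cdkn1a and Cdkn2c rose above it, and Ccnd2 has no value where the filter on a mean log2 CPM of at least 0 or 2 removes it. Among genes with a mean log2 CPM of at least 2, Cdkn1a stood above 23.8% and Cdkn2c above 25.1%, against 34.9% and 36% of all genes. Without counts, depth sets no stated limit, and low concentrations resolve only in steps.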
